A study of Homo sapiens with 4 samples.

Results

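The mitochondrial respiratory chain was followed through 43 of its nuclear genes, listed by name: 21 subunits of complex I, 4 of complex II, 6 of complex III, cytochrome c and 11 of complex IV. Each gene was read on the brightest probe set that the array annotation assigns to that gene alone, by mean signal over all 4 arrays. By this rule 39 of the 43 genes were measured, out of 19775 genes with such a probe set and 54675 probe sets in all. NDUFS8 and UQCRH have only probe sets that the annotation lists for several genes, and SDHB and UQCRFS1 were not analysed here. NDUFA4 was found under its current symbol, COXFA4, and is called NDUFA4 in what follows because it was listed by that name.

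The chain takes electrons from NADH at complex I and from succinate at complex II, passes them through ubiquinone, complex III and cytochrome c to complex IV, and reduces oxygen to water there, while complexes I, III and IV pump the protons that drive ATP synthase. Most subunits are encoded in the nucleus and imported, and a small set that includes the catalytic subunits of complex IV is encoded in mitochondrial DNA. In monocytes and macrophages that meet bacterial products, energy supply is known to shift from respiration toward glycolysis.

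The study asked how THP-1 cells, a human monocytic leukemia line, answer heat-killed nontypeable Haemophilus influenzae (NTHi) when they carry Siglec-14, an activating sialic acid receptor, or Siglec-5, its inhibitory partner. Siglec-14/THP-1 stands in for monocytes with a working SIGLEC14 gene, and Siglec-5/THP-1 for monocytes that lack it. Both are sublines of 1 cell line, so what separates them besides the introduced receptor cannot be told apart from the receptor. Cells of each line were kept for 6 h in serum-free macrophage medium alone, giving Siglec-14,NTHi[-] and Siglec-5,NTHi[-], or with NTHi strain 2019 at a multiplicity of infection of 100, giving Siglec-14,NTHi[+] and Siglec-5,NTHi[+]. Each of these 4 conditions was measured once, on 1 Affymetrix U133 Plus 2.0 array, from 250 ng of total RNA.

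Because there is 1 array per condition, a ratio of 2 arrays has no replicate check and no p-value, and it is given beside the same ratio over other genes. Values are signal intensities on a linear scale, and ratios are log2 ratios. The signals of an array summed to 12735500 in Siglec-14,NTHi[-], 13977411 in Siglec-14,NTHi[+], 14047100 in Siglec-5,NTHi[-] and 13431505 in Siglec-5,NTHi[+], so the first array was the dimmest over bright genes too. Of 12 myeloid markers, 10 had a probe set and 8 of these were at or above the median of all signals (16.02) on every array, with summed signals of 7690 to 9002, while CD14 and FCGR1A, both defining monocyte markers, were below it on every array. Of 11 markers of other cell types, 10 had a probe set. Among these, 6 were at or above that median on every array and 3 were below it on every array (CD3E, MS4A1 and KRT19). Reaching that median thus does not mark a gene as myeloid. The list summed to 2770 and 2832 in the Siglec-14 line and to 1115 and 972 in the Siglec-5 line. PECAM1, an adhesion molecule that monocytes also carry, led that sum with 2307 and 2376 against 771 and 627. COL1A1, a collagen of fibroblasts, had 266 and 257 against 141 and 132 (limma adjusted p = 2.73e-06). That p-value takes its variance from a trend over all probe sets, not from replicate arrays. The part of these markers in the differences between the lines was not tested. The SIGLEC5 probe set, near the median of all signals, had 21.3 and 19.5 without and with NTHi in the Siglec-14 line and 4.13 and 21.6 in the Siglec-5 line. Its lowest signal was thus on the array labelled Siglec-5,NTHi[-], which goes against that label, and whether the probe set reads the introduced gene was not tested. Directions between the lines therefore rest on the labels.

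The stretches around the start sites of 5 genes are shown. Those of NDUFS3, UQCRC1 and COX6A1 carry motifs by which respiratory genes are usually grouped, all 3 in COX6A1. Those of NDUFA4 and its paralog COXFA4L3 hold none of the 3 and are shown because these genes lie toward the Siglec-14 side of the difference between the lines. Each runs from 250 bases before to 50 bases after a RefSeq start site (GRCh38.p14), 5′ to 3′ on the gene's strand, and capitals mark matches on either strand to GCGCANGCG (NRF1), CCGGAAG (GABP and other ETS factors) and AANATGGCG (YY1). The windows are chr11:47578824-47579123 on the plus strand for NDUFS3, chr3:48609597-48609896 on the minus strand for UQCRC1, chr12:120437863-120438162 on the plus strand for COX6A1, chr7:10940104-10940403 on the minus strand for NDUFA4 and chr15:45430360-45430659 on the plus strand for COXFA4L3.
NDUFS3: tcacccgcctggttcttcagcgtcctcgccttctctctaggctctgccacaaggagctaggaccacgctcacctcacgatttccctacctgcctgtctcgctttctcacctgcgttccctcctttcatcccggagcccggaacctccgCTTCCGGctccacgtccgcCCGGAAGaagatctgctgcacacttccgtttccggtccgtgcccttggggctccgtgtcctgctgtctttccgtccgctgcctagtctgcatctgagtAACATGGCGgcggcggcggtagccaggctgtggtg
UQCRC1: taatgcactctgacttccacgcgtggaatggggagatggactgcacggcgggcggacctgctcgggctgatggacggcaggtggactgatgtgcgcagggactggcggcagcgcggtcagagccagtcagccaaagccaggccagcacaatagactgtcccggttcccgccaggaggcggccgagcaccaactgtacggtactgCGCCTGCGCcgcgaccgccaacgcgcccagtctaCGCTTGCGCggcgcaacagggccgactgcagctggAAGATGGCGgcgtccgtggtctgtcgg
COX6A1: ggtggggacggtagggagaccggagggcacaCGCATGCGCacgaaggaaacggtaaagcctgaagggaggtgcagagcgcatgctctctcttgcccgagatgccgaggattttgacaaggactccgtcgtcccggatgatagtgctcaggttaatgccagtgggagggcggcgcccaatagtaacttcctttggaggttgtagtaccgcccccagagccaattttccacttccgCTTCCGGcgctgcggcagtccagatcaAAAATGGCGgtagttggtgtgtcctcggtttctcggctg
NDUFA4: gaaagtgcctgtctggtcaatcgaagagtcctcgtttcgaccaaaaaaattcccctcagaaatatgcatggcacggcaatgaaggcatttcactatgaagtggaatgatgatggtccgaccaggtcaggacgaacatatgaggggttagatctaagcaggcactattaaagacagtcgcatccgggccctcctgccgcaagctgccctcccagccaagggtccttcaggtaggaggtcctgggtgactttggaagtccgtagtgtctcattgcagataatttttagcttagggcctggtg
COXFA4L3: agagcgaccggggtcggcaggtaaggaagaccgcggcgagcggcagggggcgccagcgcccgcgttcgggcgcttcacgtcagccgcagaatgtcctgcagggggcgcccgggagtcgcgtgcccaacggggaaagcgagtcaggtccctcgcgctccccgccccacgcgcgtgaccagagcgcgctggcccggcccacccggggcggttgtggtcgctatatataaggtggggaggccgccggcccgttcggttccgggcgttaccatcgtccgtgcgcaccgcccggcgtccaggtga
In NDUFS3 the ETS letters begin 102 and 83 bases before the start site, and the YY1 letters begin 15 bases after it. In UQCRC1 the NRF1 letters begin 46 and 12 bases before the start site and the YY1 letters 23 bases after it. In COX6A1 the NRF1 letters begin 219 bases and the ETS letters 16 bases before the start site, with the YY1 letters 11 bases after it. None of the 3 strings is in the NDUFA4 and COXFA4L3 windows.

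Over the 35 measured subunits with a window in the RefSeq table, which have 43 windows, the YY1 string stood in 11 windows (25.6%), against 3.19% of all 35116 windows and 5.4% of the 16118 windows of genes at or above the median signal. The ETS string was in 11 windows (25.6%, against 10.3% and 15.7%) and the NRF1 string in 8 (18.6%, against 7.52% and 11.6%). At least 1 of these 3 strings was in 22 of the 43 windows (51.2%), which belong to 21 of the 35 genes, against 18.4% of all windows and 28.3% of those of expressed genes. The other motifs were near the shares of expressed genes: the CREB string TGACGTCA in 1 window (2.33%, against 2.64%), the TATA box string TATAAA in 4 (9.3%, against 6.93%) and the consensus of NF-kB, the factor best known for driving inflammatory genes, in 5 (11.6%, against 13.2%). The ERRA string TCAAGGTCA was in 1 window, that of SDHD (0.217% of expressed-gene windows). The YY1 string holds ATG, the letters of a start codon, and it lay after the start site in each gene shown that holds it. How far the starts of coding sequences add to its count was not tested. No share is given for genes as bright as the subunits, so the part of brightness in these differences was not tested. These are letter matches in short windows and say nothing of binding in these cells.

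**Figure D1:**
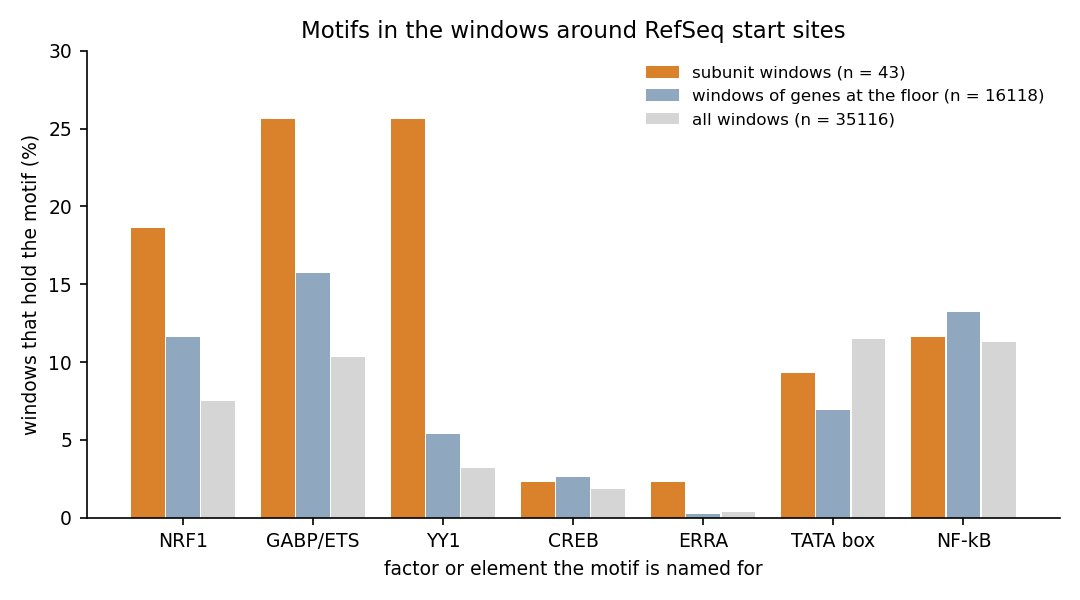
Share of start-site windows (%, vertical axis) that hold each motif (horizontal axis) among 43 windows of the subunits, 16118 windows of genes at or above the median signal and all 35116 windows. The YY1 bars differ most, 25.6% of subunit windows against 5.4% and 3.19%. That string holds ATG, the letters of a start codon, and the part of coding starts in its count was not tested.

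The subunits were strongly and evenly expressed on all 4 arrays. Their geometric mean signal was 2476 in Siglec-14,NTHi[-], 2747 in Siglec-14,NTHi[+], 2788 in Siglec-5,NTHi[-] and 2635 in Siglec-5,NTHi[+], and the dimmest, NDUFA8, averaged 634.6. The highest of a subunit's 4 signals exceeded the lowest by 1.07-fold (NDUFA10 and NDUFS4) to 1.36-fold (NDUFB7), with a median of 1.18-fold. The 2894 genes at least as bright as NDUFA8 had a median of 1.23-fold. The spread was under 1.2-fold for 24 of the 39 subunits and for 39.9% of those genes, and under 1.5-fold for 39 of 39 and for 88.5%.

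Siglec-14,NTHi[-] gave the lowest signal for 28 of the 39 subunits and the highest for 0. The genes of like brightness leaned the same way, 55.6% of them having their lowest signal on that array and 3.18% their highest. The highest signal was in Siglec-5,NTHi[-] for 19 subunits and in Siglec-14,NTHi[+] for 18, against 55.6% and 32.9% of the genes of like brightness. The subunits' mean signals thus came in the same order as the arrays' summed signals, and the part of the latter in the former was not tested. The 2 Siglec-14 arrays were both below the 2 Siglec-5 arrays for 9 subunits, against 43.2% of the genes of like brightness, and both above them for 2 (NDUFA4 and UQCRC1), against 14.6%.

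**Figure D2:**
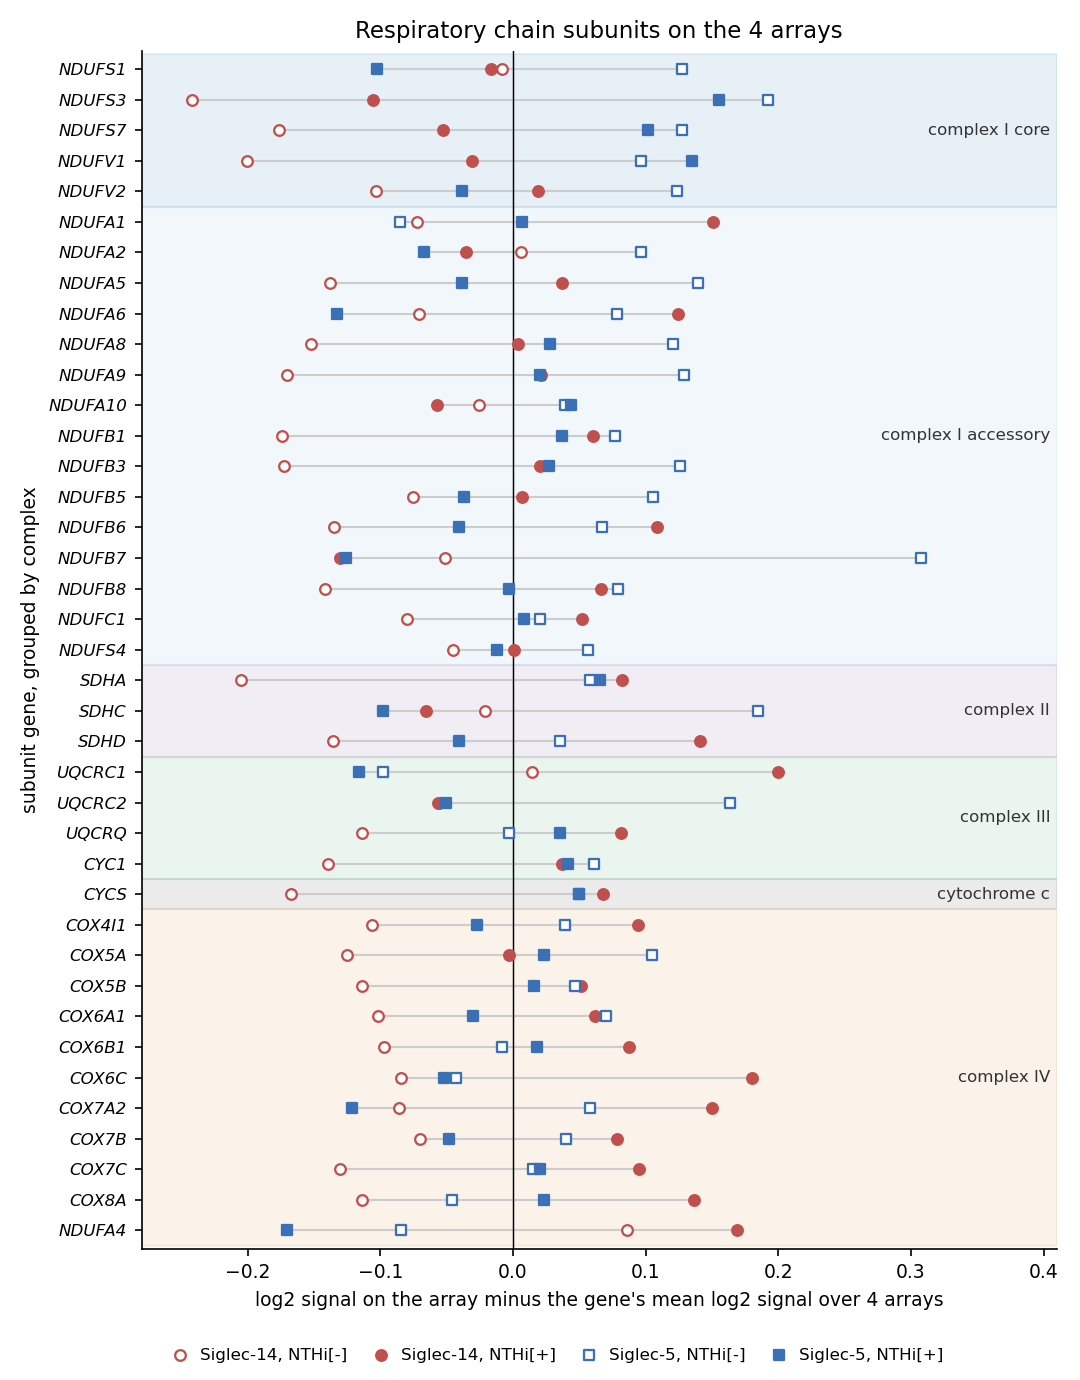
Each subunit's log2 signal on the 4 arrays minus its own mean over them (horizontal axis, log2 units), with genes grouped by complex (vertical axis) and grey lines from the lowest to the highest array. Siglec-14,NTHi[-] is the lowest point for 28 of 39 subunits. The red points of NDUFS3, NDUFS7 and NDUFV1 all lie left of the blue ones, and those of UQCRC1 and NDUFA4 right of them.

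With NTHi the subunits of Siglec-14/THP-1 read slightly higher, well inside the fold used to count differences. Their log2 ratio of Siglec-14,NTHi[+] over Siglec-14,NTHi[-] had a median of 0.18 (SD 0.10 over 39 genes) and ran from -0.08 in NDUFB7 to 0.29 in SDHA, the flavoprotein of complex II. It was above 0 for 33 of 39 subunits, and for 80.8% of the genes of like brightness, whose median was 0.11 (SD 0.16). The subunits' median was 0.041 with the arrays scaled to the same sum, 0.016 after quantile normalization, 0.087 on the trimmed mean and 0.082 on the bright named genes, so its size rests on the scaling. None of the 39 was at least 1.5-fold higher or lower, against 7.9% of 13210 genes that were higher and 6.42% that were lower. In bulk RNA, less of a transcript per cell and fewer cells that carry it cannot be told apart.

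In Siglec-5/THP-1 the same comparison lay just below 0. The median log2 ratio of Siglec-5,NTHi[+] over Siglec-5,NTHi[-] was -0.08 (SD 0.10), from -0.43 in NDUFB7 to 0.09 in NDUFA1. Of the 39 subunits, 8 were above 0 and 31 below. The genes of like brightness had a median of -0.09 (SD 0.23), and 21.8% of them were above 0. With the arrays scaled to the same median, the same trimmed mean or the bright named genes the subunits' median was 0.021 to 0.029, so its direction rests on the scaling. Again 0 of 39 passed 1.5-fold, against 5.99% of 13014 genes higher and 8.98% lower. The small accessory subunit NDUFA1 had signals of 4847 and 5658 without and with NTHi in the Siglec-14 line, and of 4804 and 5119 in the Siglec-5 line. COX8A, an accessory subunit of complex IV, had 4490 and 5342, then 4708 and 4940. Both genes were higher with NTHi in both lines. Neither passed a test of NTHi over both lines on the signals as deposited (limma adjusted p = 0.9998 for each). Of the 39 subunits, 7 were higher in both lines and 5 lower in both. The shares of the genes of like brightness that were higher or lower in both lines are not given, so whether these counts are unusual cannot be told.

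The 2 lines differed in the sign of their medians. The response in Siglec-14/THP-1 minus that in Siglec-5/THP-1 was above 0 for 38 of 39 subunits with a median of 0.22, and 93.6% of the genes of like brightness had the same sign with a median of 0.20. NDUFA10, an accessory subunit of complex I, was the exception, with 1143 and 1118 in the Siglec-14 line and 1195 and 1199 in the Siglec-5 line. A ratio above 0 in the first line and below 0 in the second was found for 26 of 39 subunits (66.7%) and for 60.4% of the genes of like brightness, so the same split was seen in bright genes at large.

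Between the lines, the subunits as a set again tracked other bright genes. Without NTHi the median log2 ratio of Siglec-14 over Siglec-5 was -0.17 (SD 0.12), from -0.43 in NDUFS3 to 0.17 in NDUFA4, and the genes of like brightness had a median of -0.19 (SD 0.40). The subunits' median was -0.031 to -0.014 by sum, trimmed mean, quantile or bright-gene scaling. With NTHi it was 0.04 (SD 0.12), from -0.26 in NDUFS3 to 0.34 in NDUFA4, against 0.01 (SD 0.37), and it turned to between -0.066 and -0.0075 when the arrays were scaled to the same sum, median, trimmed mean or bright genes. None of the 39 reached 1.5-fold in either condition. Of all genes, 11.3% of 13284 were at least that much higher and 11.6% lower without NTHi, and 15.1% of 13099 were higher and 7.65% lower with it.

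**Figure D3:**
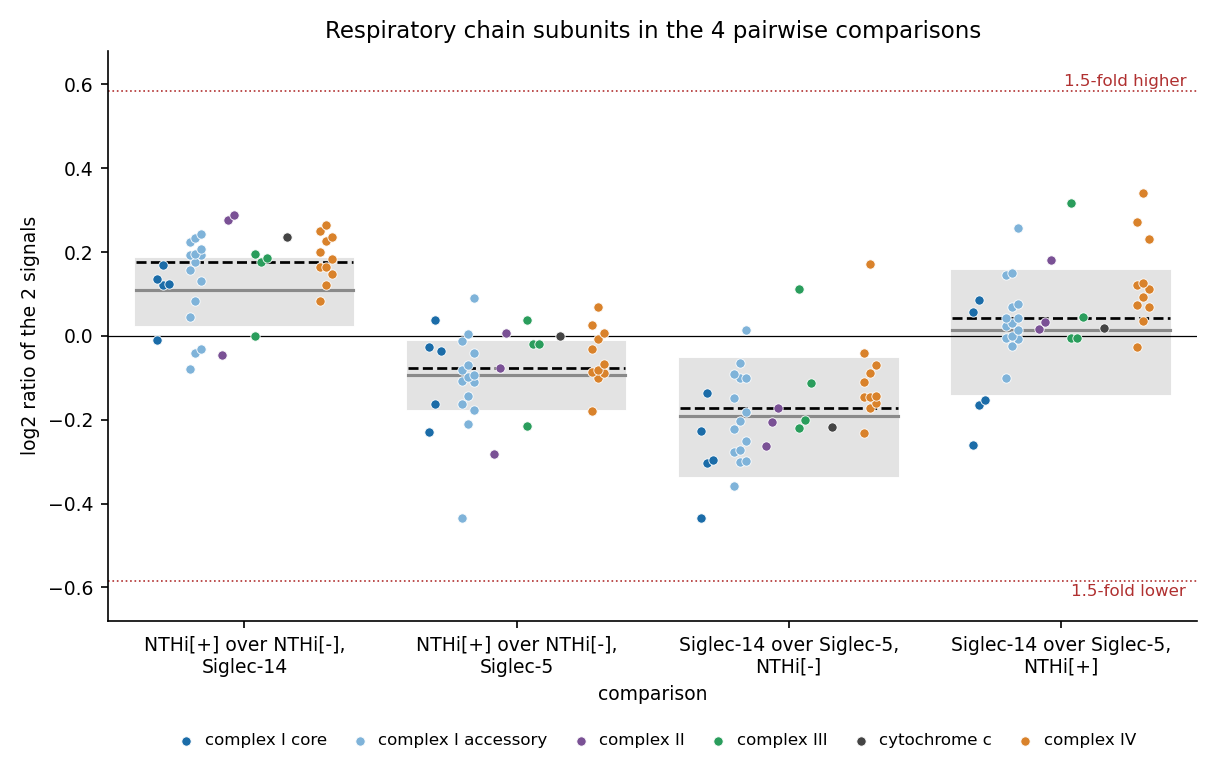
Log2 ratio of 2 signals (vertical axis) for each measured subunit in the 4 pairwise comparisons (horizontal axis), coloured by complex. Dashed black lines are the subunits' medians (0.18, -0.08, -0.17 and 0.04), grey boxes and lines the middle 50% and the median of 2894 genes of like brightness, and dotted lines 1.5-fold, which no subunit reaches. The signs of the medians -0.08 and 0.04 turn under other scalings of the arrays.

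A linear model over all 4 arrays asked for differences shared by both conditions or by both lines. It has a line term, the mean log2 difference of Siglec-14 from Siglec-5 over both conditions, and an NTHi term, the mean difference with from without NTHi over both lines, and the one remaining degree of freedom is how unlike the lines' responses were. On the signals as deposited, none of the 39 subunits passed limma's moderated test for the line term at an adjusted p under 0.05, against 6.24% of 13935 genes that were higher and 4.95% that were lower. None passed for the NTHi term, against 0.99% higher and 0.294% lower. The lowest adjusted p-values among the subunits were 0.196 (line, NDUFS3) and 0.938 (NTHi, NDUFB7), with standard errors of 0.15 to 0.19, and an unadjusted p under 0.05 was reached by 1 subunit for the line term and by 0 for the NTHi term. Without the intensity trend limma called 0 of all genes for either term, and with the arrays scaled to the same sum it called 5 subunits higher and 3 lower in the Siglec-14 line, beside 13.2% of all 13965 genes higher and 13.0% lower. The standard errors rest on the scaling too. By sum, that of the line term was 0.048 instead of 0.16 for NDUFS3 and 0.040 instead of 0.17 for NDUFA4, with line terms of -0.31 and 0.30 instead of -0.35 and 0.26.

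Like many bright genes, the core subunits of complex I, which carry the flavin and the iron-sulfur clusters, leaned lower in the Siglec-14 line. Their line terms were below 0 in 5 of 5, with a median of -0.23, although none passed the test on the signals as deposited. The count was 3 to 5 of 5 under the other scalings (median -0.30 to -0.15). Genes of like brightness leaned the same way without NTHi, with median log2 ratios between the lines of -0.19 without and 0.01 with it. Of the 5 core subunits, 0 were higher in the Siglec-14 line without NTHi and 2 with it, against 18.0% and 52.6% of those genes. The share of those genes with a line term below 0 is not given, so whether 5 of 5 is unusual cannot be told. NDUFS3, in the arm that reduces ubiquinone, had signals of 2236 and 2457 without and with NTHi in the Siglec-14 line and of 3020 and 2945 in the Siglec-5 line. Both Siglec-14 arrays were below both Siglec-5 arrays, with a line term of -0.35 (SE 0.16, limma adjusted p = 0.196). NDUFV1, which binds NADH and the flavin, had 1498 and 1685 against 1840 and 1890 (line term -0.23, SE 0.15). NDUFS7, whose iron-sulfur cluster hands electrons to ubiquinone, had 1237 and 1348 against 1527 and 1500 (line term -0.23, SE 0.15). In these 3 genes both Siglec-14 arrays were the lower ones, as in 43.2% of the genes of like brightness, and their line terms were below 0 under each scaling tried in the model. NDUFV2 and NDUFS1, the other 2 iron-sulfur core subunits measured, overlapped between the lines. NDUFV2 ran from 2242 to 2624. NDUFS1 had 901 and 896 against 990 and 844, the last being the lowest of its 4 signals.

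The 15 accessory subunits of complex I, which surround the core and are needed for its assembly and stability, had line terms from -0.18 to 0.08 with 13 of 15 below 0 and a median of -0.08, which became 7 to 14 of 15 under the other scalings, with a median above 0 after quantile normalization. Without NTHi, 14 of 15 were lower in the Siglec-14 line, and with it 11 of 15 were higher. Of the genes of like brightness, 18.0% were higher in that line without NTHi and 52.6% with it. NDUFB7 of the membrane arm stood out on a single array, with 1209 and 1144 in the Siglec-14 line and 1550 and 1148 in the Siglec-5 line. The 3 signals other than Siglec-5,NTHi[-] lay close together, and that array alone set its line term of -0.18 and its NTHi term of -0.26 (SE 0.15, limma adjusted p = 0.938). NDUFB3 (1685 and 1926 against 2072 and 1935) and NDUFA9 (1104 and 1261 against 1359 and 1260) met in the arrays with NTHi and were apart without it. NDUFA8 had 570 and 635 against 688 and 645.

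NDUFA6 and NDUFA1 were the accessory subunits with line terms above 0 in the signals as deposited. NDUFA6, which holds an acyl carrier protein on complex I, had 2055 and 2353 against 2279 and 1969, so its lines crossed. NDUFB1 (3706 and 4360 against 4410 and 4290) and NDUFB8 (3939 and 4550 against 4592 and 4337) had their low signal in Siglec-14,NTHi[-] and 3 similar ones elsewhere. NDUFA10, NDUFB3 and NDUFA8, 3 of the 15, had both Siglec-14 arrays below both Siglec-5 arrays, against 43.2% of the genes of like brightness.

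**Figure D4:**
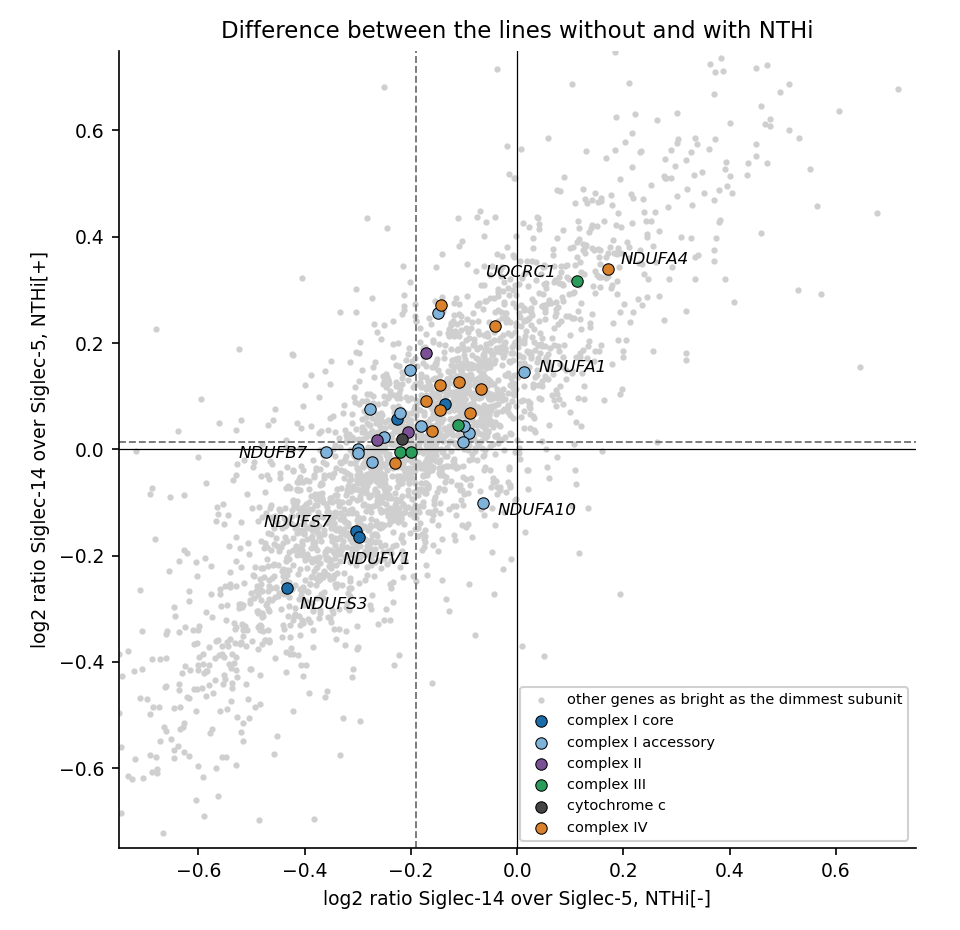
Log2 ratio of Siglec-14 over Siglec-5 without NTHi (horizontal axis) and with NTHi (vertical axis) for the 39 subunits, coloured by complex, over other genes of like brightness in grey (128 of which lie outside the plotted range). Dashed lines are the medians of the genes of like brightness (-0.19 and 0.01). NDUFS3, NDUFV1 and NDUFS7 are below 0 on both axes, and NDUFA4 and UQCRC1 above 0 on both.

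Complex II was measured through 3 of its 4 subunits, none of which set the lines apart. SDHA had 741 and 904 in the Siglec-14 line and 889 and 893 in the Siglec-5 line, with the first array low and the others alike. SDHD, a membrane anchor that helps to bind ubiquinone, had 2232 and 2703 against 2513 and 2384. SDHC, the other anchor, had 1366 and 1324 against 1575 and 1295. Its next 3 probe sets, with mean signals of 1060 to 1255, gave log2 ratios with NTHi of -0.04 to 0.03 in the Siglec-5 line, where the brightest gave -0.28. In the Siglec-14 line they gave 0.07 to 0.22, where the brightest gave -0.04.

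Of the 4 complex III subunits measured, UQCRC1 was the one that read higher in the Siglec-14 line in both conditions. UQCRC1, a core protein on the matrix side, had 897 and 1020 in the Siglec-14 line against 830 and 819 in the Siglec-5 line. Both Siglec-14 arrays were above both Siglec-5 arrays (line term 0.21, SE 0.15, limma adjusted p = 0.496). UQCRC2, the other core protein, had 1913 and 1912 against 2228 and 1920. Its next probe set had 1307 and 1819 against 1732 and 1763, a log2 ratio with NTHi in the Siglec-14 line of 0.48 where the brightest gave -0.0004, so the 2 probe sets differ in which array stands apart. UQCRQ, a small subunit, had 4239 and 4853 against 4579 and 4702, and CYC1, the cytochrome c1 that reduces cytochrome c, had 1593 and 1800 against 1830 and 1806. CYCS, cytochrome c itself, had 8303 and 9773 against 9648 and 9647. For the last 3 the low array was Siglec-14,NTHi[-], and the others were close.

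Complex IV had 6 of 11 line terms below 0 with a median of -0.01, and 2 of 11 after scaling to the same sum (median 0.032) or 9 of 11 after scaling to the same median (-0.08). With NTHi 10 of its 11 subunits were higher in the Siglec-14 line (median log2 ratio 0.11), and without NTHi 1 of 11 was (median -0.14). Of the genes of like brightness, 52.6% were higher in that line with NTHi and 18.0% without it. The median of all genes at or above the 75th percentile of signals was -0.17 without and 0.04 with NTHi. Of the 11 complex IV subunits, 8 stood above that median in both conditions and 1 below in both. Of 5 complex I core subunits, 1 stood above in both and 3 below. The counts were 3 and 5 of 15 accessory subunits, 0 and 2 of 3 in complex II, and 2 and 2 of 4 in complex III. Of all 39 subunits, 14 stood above in both and 14 below. The shares among other genes are not given, so whether the counts of any complex are unusual cannot be told. These counts by complex were picked out after seeing the data and have no test, so they do not show that complexes differ. COX6C had 4746 and 5701 against 4884 and 4855, and COX7A2 had 6354 and 7480 against 7018 and 6198. In both genes Siglec-14,NTHi[+] was the highest array. COX7C (7170 and 8382 against 7930 and 7962) and COX6B1 (3868 and 4395 against 4114 and 4190), the subunit that faces cytochrome c, had the same highest array and their lowest in Siglec-14,NTHi[-].

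NDUFA4, a complex IV subunit that was first assigned to complex I, had the largest line term of the 39. Its signals were 5106 and 5408 without and with NTHi in the Siglec-14 line and 4535 and 4273 in the Siglec-5 line. Both Siglec-14 arrays were above both Siglec-5 arrays (line term 0.26, SE 0.17, limma adjusted p = 0.459), and the log2 ratio to NTHi was 0.08 in the first line and -0.09 in the second. Among the 11 subunits of complex IV it was the lone one that was higher in the Siglec-14 line without NTHi.

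COXFA4L3 (C15orf48, also called NMES1 or MOCCI), a paralog that is known to take the place of NDUFA4 in complex IV during inflammation, was added to the lists after earlier results of these data were known. Its signals were 276 and 821 in the Siglec-14 line and 16.2 and 57.2 in the Siglec-5 line. The signal in Siglec-5,NTHi[-] was at the median of all signals, so no fold is given against it. With NTHi the gene was 2.98-fold higher in Siglec-14/THP-1, and among the arrays with NTHi it was 14.4-fold higher in the Siglec-14 line. Over both lines it rose with NTHi (NTHi term 1.70, SE 0.19, limma adjusted p = 3.54e-16), and over both conditions it was higher in the Siglec-14 line (line term 3.97, limma adjusted p = 1.39e-93). These p-values take their variance from the trend over all probe sets, and without the trend both calls were lost (limma adjusted p = 0.503 and 0.188). The NTHi call was also lost with the line term left out (limma adjusted p = 0.9998). COXFA4L2, the other paralog, was below the median of all signals on every array.

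**Figure D5:**
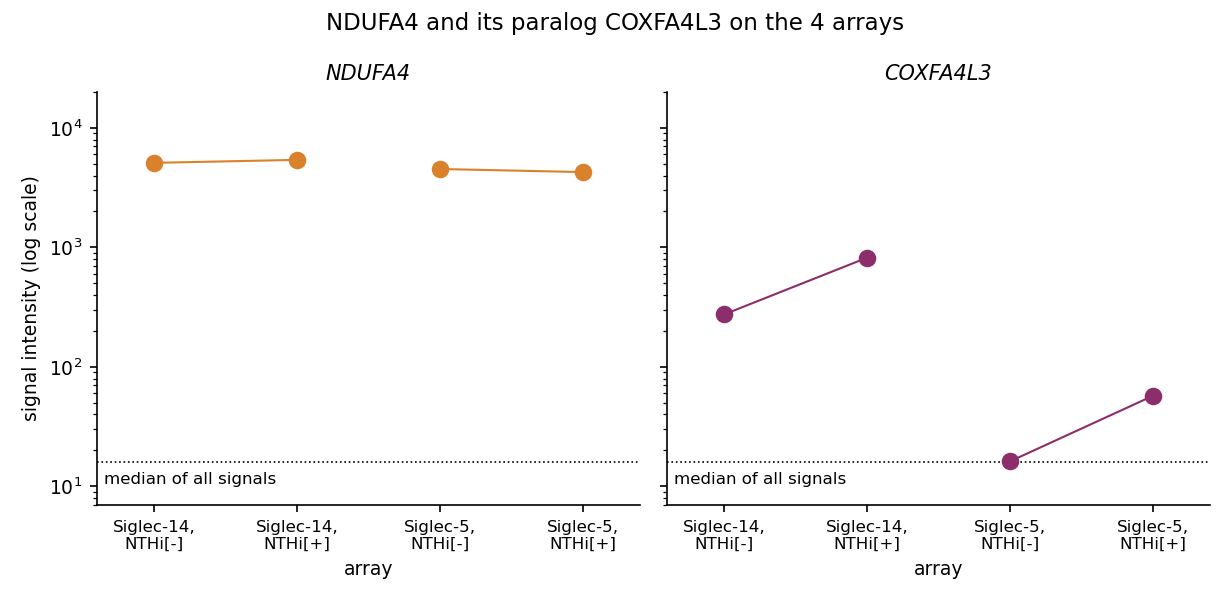
Signal intensity (vertical axis, log scale) of NDUFA4 and COXFA4L3 on the 4 arrays (horizontal axis), 1 point per array with lines joining the arrays of a cell line and a dotted line at the median of all signals (16.02). NDUFA4 stays between 4273 and 5408, and COXFA4L3 runs from 16.2 to 821. Levels of the 2 probe sets are not compared with each other.

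Repeat probe sets gave another reading of part of the chain. For 10 subunits, 15 further single-gene probe sets reached the 75th percentile of all signals (105), and their log2 ratio differed from that of the brightest probe set by a median of 0.10, 0.09, 0.07 and 0.05 in the 4 comparisons and by at most 0.71, 0.31, 0.39 and 0.24. In the first comparison the widest of these disagreements exceeded the log2 ratio of every subunit, and in the other 3 it was smaller than the widest ratio. NDUFB1, NDUFS1 and NDUFV1 had further, dim probe sets whose line or NTHi term lay over 1.5-fold from that of the brightest, such as one of NDUFV1 with 4.88 to 32.9. For 18 of the 39 genes the brightest probe set ends in _s_at or _x_at, codes for sets that can pick up more than 1 transcript, and many of these genes have processed pseudogenes, so near copies may share the signal.

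Most other subunits of the chain stayed within 1.5-fold too. Of 19 other nuclear subunits of complexes I, III and IV, 16 were measured, and 0 of 16 passed 1.5-fold in any comparison or the limma test for either term. Their medians were 0.16 and -0.04 with NTHi in the Siglec-14 and Siglec-5 lines and -0.15 and 0.05 between the lines without and with NTHi. ATP synthase gave 0 of 15 (medians 0.15, -0.05, -0.18 and 0.04). The 7 probe sets for subunits encoded in mitochondrial DNA gave 0 of 7, with medians of 0.21, 0.00, -0.07 and 0.12. The COX2 gene of that genome (MT-CO2), for a copper-binding subunit of complex IV, had 12520 and 15330 in the Siglec-14 line and 13170 and 14070 in the Siglec-5 line. The tissue-restricted isoforms were dim: 3 of 7 reached the median of all signals on at least 1 array. COX6A2, of heart and muscle, had 34.7 and 12.6 against 21.0 and 18.5. COX6B2, of testis, had 13.8 and 21.3 against 8.01 and 12.3. COX4I2, of lung, had 36.5 and 30.6 against 25.2 and 25.2. With NTHi in the Siglec-14 line COX6B2 was past 1.5-fold higher and COX6A2 past it lower, in signals near that median. Between the lines a different isoform was past it higher in the Siglec-14 line in each condition. Without NTHi it was COX6A2, whose direction turned with NTHi (12.6 against 18.5). With NTHi it was COX6B2, whose 2 signals without NTHi were both below that median. The adjusted p-values of limma were 0.628 or above.

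Genes that build or regulate the chain included some that passed the test on the signals as deposited. These calls rest on the intensity trend, since limma called 0 of all genes without it. Of 38 assembly factors 6 were lower in the Siglec-14 line by the limma line term and 0 were higher, against 4.95% and 6.24% of all genes. Their median log2 ratio was -0.30 without NTHi and -0.09 with it, where genes at or above the 75th percentile of signals had -0.17 and 0.04. UQCC3, an assembly factor of complex III, had 242 and 245 against 386 and 355 (line term -0.61, SE 0.16, limma adjusted p = 0.00358). SDHAF3 of complex II had 389 and 429 against 698 and 490, and COA4 of complex IV had 517 and 577 against 798 and 727. These 3 were picked after their values were seen. Of 12 regulators of respiratory genes, the one called was TFB2M, a transcription factor of mitochondrial DNA, which was lower (1602 and 1603 against 2481 and 2147, limma adjusted p = 0.0127), and NRF1, which binds the motif shown above, had 125 and 131 against 171 and 186 without passing. Of 46 mitochondrial ribosomal proteins MRPS2 and MRPS12 were lower by the line term, and 0 of 14 citric acid cycle enzymes passed the limma test.

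A pair of neighbouring lists gives the setting in which the subunits stood. The limma calls in them also rest on the intensity trend, without which 0 of all genes were called. Of 17 glycolytic enzymes tested, HK2, a hexokinase, which traps glucose in the cell, was lower in the Siglec-14 line (321 and 315 against 663 and 530, limma adjusted p = 4.53e-07). ENO2 and PKM were higher by the line term, ENO2 with 44.4 and 41.9 against 16.9 and 19.2. The NTHi term called 0 of 17. Of 8 mitochondrial genes tied to macrophage activation, SOD2, the superoxide dismutase of the matrix, rose with NTHi from 116 to 244 and from 98.6 to 150 (NTHi term 0.84, SE 0.18, limma adjusted p = 0.00087). PDK4, which holds back pyruvate dehydrogenase, was higher in the Siglec-14 line by at least 2.03-fold without NTHi and at least 1.40-fold with it. Its signals were 32.5 and 22.4 against 11.2 and 3.17, the last 2 lying below the median of all signals.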

How the data were processed

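Total RNA of 4 samples was labelled with the GeneChip 3′ IVT Express kit and hybridized to 1 array each. Per the methods, the authors quantified signals with GeneChip Operating Software (GCOS, version not given in the sources used here) and standardized them on the cumulative signal of all probes. The deposited values are signal intensities on a linear scale, whose sums still differ between arrays, and they were used without further scaling. Detection calls were not used, and 62 control probe sets were left out. Samples were grouped by their labels, and genes were named from the platform annotation, with 1 member symbol updated through RefSeq. The 43 genes, the other lists, the tests and the alternatives were chosen with earlier results of these data known.

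Genes counted as 1.5-fold apart had at least 1 of the 2 signals at the median over all probe sets and arrays, 16.02. limma 3.58.1 (R 4.3.3) was fitted to log2 signals of 31981 probe sets at that floor on at least 1 array, with line and NTHi as additive terms, eBayes with an intensity trend and Benjamini-Hochberg adjustment over all of them. With 1 residual degree of freedom and infinite prior degrees of freedom, the variance is that of the trend. Tested on simulated data for the line term, the fit recovered 200 of 200 changes of 2-fold, with 18 false calls among 31981 probe sets. These changes were placed in bright probe sets, with noise of chosen size that was independent between arrays and no shift of a whole array. The subunits' line terms, -0.35 to 0.26 in log2, were smaller than 2-fold, so the simulation cannot tell whether such differences would be found. The number of arrays limits the precision. Genes given with values were the brightest and dimmest subunit of each complex, those with the largest and smallest terms, those whose probe sets disagree and, from the other lists, genes 1.5-fold apart the same way in both comparisons of a kind, together with others said to be picked afterwards or given to complete a complex. Alternatives were sum, median, trimmed-mean and quantile scaling, other choices of probe set, a pseudocount of 16, a smaller and a larger fold, other floors, and, for limma, no trend, 1 term or all probe sets. Scaling on bright named genes was added after seeing the data. Start-site windows are those of RefSeq (GRCh38.p14).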

Additional observations from a re-analysis of the deposited data

Results flagged for a closer look

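The median response of the 39 subunits to NTHi was above 0 in Siglec-14/THP-1 (0.18) and below 0 in Siglec-5/THP-1 (-0.08), a difference of 0.22 on the log2 scale with opposite signs in the 2 lines. The difference was not tested, since each line has 1 array per condition. The genes of like brightness differed by a median of 0.20, the sum of all signals was 12735500 and 13977411 without and with NTHi in the first line and 14047100 and 13431505 in the second, and the sign in Siglec-5/THP-1 turned to 0.03 when the arrays were scaled to the same trimmed mean.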

How the results depend on the processing

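Scaling moved the medians. For NTHi in Siglec-14/THP-1 the median log2 ratio of the subunits was 0.041 with the arrays scaled to the same sum and 0.016 after quantile normalization, instead of 0.18. On the trimmed mean it was 0.087 and on the bright genes 0.082. For NTHi in Siglec-5/THP-1 it was 0.029 on the trimmed mean, 0.026 on the bright named genes and 0.021 on the median, instead of -0.08. Between the lines without NTHi it was -0.0305 by sum, -0.029 by trimmed mean, -0.014 by quantiles and -0.031 by bright genes, instead of -0.17, and with NTHi -0.066 on the same median, -0.014 by sum, -0.0075 by trimmed mean and -0.011 by bright genes, instead of 0.044. The median of all bright genes moved with them.

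Counts past 1.5-fold, 0 as reported, became 2 lower subunits for NTHi in Siglec-5/THP-1 and 1 higher between the lines with NTHi with the mean over probe sets. With plain _at probe sets (35 genes) they were 1 higher and 1 lower for NTHi in Siglec-5/THP-1, 1 higher between the lines without NTHi, and 2 higher and 1 lower with it. At a smaller fold, a log2 ratio of 0.32, they were 1 lower for NTHi in Siglec-5/THP-1, 2 lower between the lines without NTHi and 1 higher with it.

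limma's line term called 5 subunits higher (NDUFA1, UQCRC1, COX6C, COX7A2 and NDUFA4) and 3 lower (NDUFS3, NDUFS7 and NDUFV1) by sum and by bright genes, 4 higher and 3 lower by quantiles, and 3 lower by median scaling. The NTHi term called 2 lower by sum (NDUFB7 and SDHC, beside 2.71% of all genes), 1 lower by quantiles (NDUFB7, 0.746%), and 5 higher and 1 lower by bright genes (3.69% and 1.98%). The SDHC call was read on its brightest probe set alone, from which its next probe sets differed. The share of all genes called for the line term rose with these scalings too, to 13.2% higher and 13.0% lower by sum. It was 13.5% and 13.3% by bright genes, 11.1% and 11.3% by quantiles, and 7.41% and 15.8% by median scaling. The cause was not tested. The samples carry no replicate numbers to use as a block, and the model already compares NTHi within each line.

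Signals of 39 of 39 subunits were well over the median of all signals. With 1 array per condition, the spread between cultures was not measured.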
